A study of Mus musculus with 8 samples.

Results

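The mRNAs of 7 enzymes of cholesterol synthesis, Hmgcs1, Mvk, Fdft1, Sqle, Lss, Cyp51 and Dhcr7, were followed in fully grown germinal vesicle (GV) oocytes that lack the deadenylases CNOT7 and CNOT8. They were chosen by name, as enzymes of this pathway, and were 7 of the 46078 genes in the deposited table. All 7 passed the filter on low counts, which left 19241 genes to test. In short, Sqle, Cyp51 and Dhcr7 rose in the CNOT7&8 KO oocytes, Fdft1 fell, and the changes of Hmgcs1, Mvk and Lss did not pass the test. No gene of the 7 takes up cholesterol, so receptors and transport proteins are described separately, further on.

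CNOT7&8 KO oocytes came from mice in which Cnot7 fl/fl and Cnot8 fl/fl were deleted by Zp3-Cre, a Cre transgene expressed in growing oocytes, so that the ovary around the oocyte kept both genes. Control oocytes came from Zp3-Cre mice. Both groups therefore carried the transgene, and females of both had a C57BL/6J background, were 4 weeks old and gave oocytes 48 h after an injection of PMSG, a gonadotropin that stimulates follicle growth. The 4 libraries of either group each pooled 100 oocytes stripped of cumulus cells. How many females gave the oocytes of a library is not given in the sources used here. Nothing in the labels says that the libraries came from separate animals, so the p-values measure only the spread between these libraries.

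Libraries of control oocytes held 14943671 to 44092144 counts in all, and those of KO oocytes 8639444 to 26784110. A level of 3 counts, taken as the detection floor, corresponded to between 0.0802 and 0.326 CPM (counts relative to the scaled library size), which covers counting error only. Control replicate 1 and KO replicate 4, the deepest library of each group, deviated from their group means in the same way across genes (r = 0.82 over 8728 genes of at least 10 CPM). Results that change without them are given below. Cnot8 fell from 168 ± 20.01 CPM (mean ± SD, n = 4) to 35.2 ± 1.40 CPM, a log2 fold change of −2.25 ± 0.12 (SE, adjusted p = 8.2e-08). Cnot7 fell from 933 ± 77.3 to 719 ± 70.8 CPM (log2 fold change −0.38 ± 0.11, adjusted p = 0.0105), but this change no longer passed the test when libraries were scaled by their totals alone (−0.092) or by TMM on genes of at least 10 CPM (−0.12). Gene counts do not separate exons, so these values can also hold reads from transcripts that lack only the deleted part, which was not examined. By immunoblot, the paper reported loss of both proteins in KO oocytes.

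The oocyte label was checked against 12 oocyte genes, all of which were tested. With TMM scaling their summed level was 19313 to 22427 CPM in control and 15895 to 18400 CPM in KO libraries, led by Gdf9, Bmp15 and Zp2. On that scale 1 rose and 7 fell, where 31.2% of all tested genes rose and 24.1% fell. By library totals alone the log2 fold changes of Gdf9 (0.21), Bmp15 (0.16) and Zp2 (0.082) were positive, without passing the test. The sum was not taken by library totals. Of 18 markers of cumulus and granulosa cells, 17 could be tested, 7 rose (Fshr, Inha, Inhba, Nr5a2, Ptgs2, Kitl and Gja1) and Cyp19a1 fell. The call of Inhba was lost with the replicate block (adjusted p = 0.0535) and in 5 of the 8 fits that left out a library. The summed level of the 18 markers was 134 to 192 CPM in control and 272 to 354 CPM in KO libraries. Cyp19a1 (58.5 CPM) and Nr5a2 (56.6 CPM) made up most of it in control, and Nr5a2 (122 CPM) was the largest part in KO libraries. The other 9 tested markers did not pass the test, among them Amh, Star and Has2, whose means were lower in KO libraries. Foxl2, the marker that could not be tested, had at most 1 count in any library. Of 10 markers of theca, stroma, endothelium and blood, 7 could be tested and Ptprc rose, with summed levels of 88.9 to 112 CPM in control and 76.7 to 92.3 CPM in KO libraries. Nearly all of that sum was the endothelial Pecam1, and the other 9 markers together had 2.11 to 4.15 CPM in control and 3.04 to 4.28 CPM in KO libraries. Ptprc reached 0.2 CPM in control replicate 3 alone among control libraries, so it passed the filter of 0.2 CPM in 2 libraries only through KO libraries. The hemoglobin genes Hba-a1 and Hbb-bs had no count in any library. CPM values are relative to the other RNA of a library and do not give RNA per oocyte. The lower levels of oocyte genes were found with TMM scaling and depended on it for Gdf9, Bmp15 and Zp2. A smaller share of oocyte RNA and lower levels within oocytes cannot be told apart in such bulk libraries.

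Cholesterol is made from acetyl-CoA through mevalonate, the isoprenoid units and squalene, which is then oxidized, closed into lanosterol and trimmed to cholesterol. In most cells the pathway is governed by SREBP2, a transcription factor that SCAP escorts to the Golgi for cleavage when sterols are low and that INSIG proteins hold back when sterols are high. Mouse oocytes are known for weak expression of several steps and for receiving cholesterol made by the cumulus cells around them. CNOT7 and CNOT8 are, beside CNOT6 and CNOT6L, catalytic subunits of the CCR4–NOT complex that shorten poly(A) tails, an early step of mRNA decay.

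Hmgcs1 encodes the cytosolic HMG-CoA synthase, which condenses acetyl-CoA and acetoacetyl-CoA into HMG-CoA. The gene (ENSMUSG00000093930) lies on the plus strand at chr13:119690379-119708260 (GRCm38). Its mRNA was the most abundant of the 7 by CPM, with 1036, 938, 909 and 884 CPM in control replicates 1 to 4 and 725, 727, 831 and 883 CPM in KO replicates 1 to 4. Each KO value lay below each control value, but KO replicate 4 and control replicate 4 nearly touched. The means were 942 ± 66.5 and 792 ± 78.6 CPM (SD, n = 4). The log2 fold change of −0.25 ± 0.10 (SE, 95% interval −0.48 to −0.023) missed the threshold of edgeR's quasi-likelihood test (adjusted p = 0.0593). An exact permutation test over the 70 assignments of the 8 libraries gave p = 0.0286, two-sided, the smallest p it can give. The direction depended on the scaling, with 0.036 by library totals alone and 0.0010 by TMM on genes of at least 10 CPM. Without KO replicate 4 the difference was −0.29 and passed the test (adjusted p = 0.0220).

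Mvk encodes mevalonate kinase, which adds the first phosphate to mevalonate. The gene (ENSMUSG00000041939) lies on the plus strand at chr5:114444269-114460591. It was close to the detection floor, with 5, 15, 4 and 4 counts in control and 16, 18, 23 and 3 counts in KO libraries. In CPM these were 0.134, 0.740, 0.272 and 0.291 in control and 1.74, 0.989, 1.42 and 0.102 in KO libraries. KO replicates 1 to 3 lay above all control libraries, and KO replicate 4 lay below all of them. The log2 fold change was 1.49 ± 0.74 (95% interval −0.11 to 3.09, adjusted p = 0.103), and the exact permutation test gave p = 0.257. The call rested on single libraries, since without KO replicate 4 the change was 1.96 (adjusted p = 0.0106) and without control replicate 2 it was 2.19 (adjusted p = 0.0447).

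Fdft1 encodes squalene synthase, which joins farnesyl diphosphate units into squalene and commits them to sterols. The gene (ENSMUSG00000021273) lies on the minus strand at chr14:63145150-63179578. Control libraries held 821, 757, 739 and 727 CPM, and KO libraries 517, 563, 493 and 494 CPM. The groups were well apart, and the highest KO library remained below the lowest control library. Fdft1 fell from 761 ± 41.8 to 517 ± 32.8 CPM, to 67.9% of control (log2 fold change −0.56 ± 0.095, 95% interval −0.77 to −0.35, adjusted p = 0.000385). The size depended on the scaling, with −0.28 by library totals alone (adjusted p = 0.0123) and −0.31 by TMM on genes of at least 10 CPM (adjusted p = 0.00431). On the opposite strand, Ctsb, the gene of a lysosomal protease, shares 774 exonic bases with Fdft1, or 18.3% of its exonic length. Ctsb moved the other way, from 47.9 to 68.7 CPM, and the strand setting of the counting is not given in the sources used here.

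Sqle encodes squalene epoxidase, the first oxygenation of the pathway and a second control point. The gene (ENSMUSG00000022351) lies on the plus strand at chr15:59315077-59331192. Its level was 17.6, 14.9, 14.2 and 13.3 CPM in control and 23.8, 21.1, 25.3 and 23.3 CPM in KO libraries, without overlap. Sqle rose 1.55-fold, from 15.0 ± 1.83 to 23.4 ± 1.76 CPM (log2 fold change 0.64 ± 0.14, 95% interval 0.33 to 0.94, adjusted p = 0.00217).

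Lss encodes lanosterol synthase, which closes the sterol rings. The gene (ENSMUSG00000033105) lies on the plus strand at chr10:76531588-76557138. Control libraries held 15.5, 16.0, 13.4 and 14.4 CPM, and KO libraries 12.8, 11.4, 11.9 and 11.6 CPM. All KO values were the lower ones, but the gap was narrow. The means of 14.8 ± 1.15 and 11.9 ± 0.637 CPM gave a log2 fold change of −0.32 ± 0.14 (95% interval −0.62 to −0.020) with an adjusted p of 0.0660, whereas DESeq2 placed it just past the threshold (adjusted p = 0.0492). The difference shrank to −0.034 by library totals alone (adjusted p = 0.839) and to −0.068 by TMM on genes of at least 10 CPM (adjusted p = 0.679). The exact permutation test on TMM-scaled values gave p = 0.0286.

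Cyp51 encodes lanosterol 14α-demethylase, a cytochrome P450 whose product FF-MAS is known as a meiosis-activating sterol. The gene (ENSMUSG00000001467) lies on the minus strand at chr5:4081145-4104746. Its level was 9.57, 7.55, 9.32 and 7.07 CPM in control and 16.5, 19.3, 11.4 and 11.9 CPM in KO libraries. The KO libraries were all higher but split among themselves, with replicates 1 and 2 above replicates 3 and 4. Cyp51 rose 1.75-fold, from 8.38 ± 1.25 to 14.8 ± 3.81 CPM (log2 fold change 0.81 ± 0.20, 95% interval 0.37 to 1.25, adjusted p = 0.00486). It shares 166 exonic bases with Akap9 on the opposite strand, 3.76% of its exonic length, and Akap9 itself went from 86.7 to 67.0 CPM (adjusted p = 0.0993).

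Dhcr7 encodes 7-dehydrocholesterol reductase, the last step of one branch to cholesterol. The gene (ENSMUSG00000058454) lies on the plus strand at chr7:143823145-143848410. Control libraries held 6.50, 7.16, 5.24 and 6.41 CPM and KO libraries 10.1, 10.1, 13.0 and 12.8 CPM. No library of one group reached the range of the other. Dhcr7 rose 1.81-fold, from 6.33 ± 0.797 to 11.5 ± 1.62 CPM (log2 fold change 0.86 ± 0.17, 95% interval 0.49 to 1.23, adjusted p = 0.00117).

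**Figure D1:**
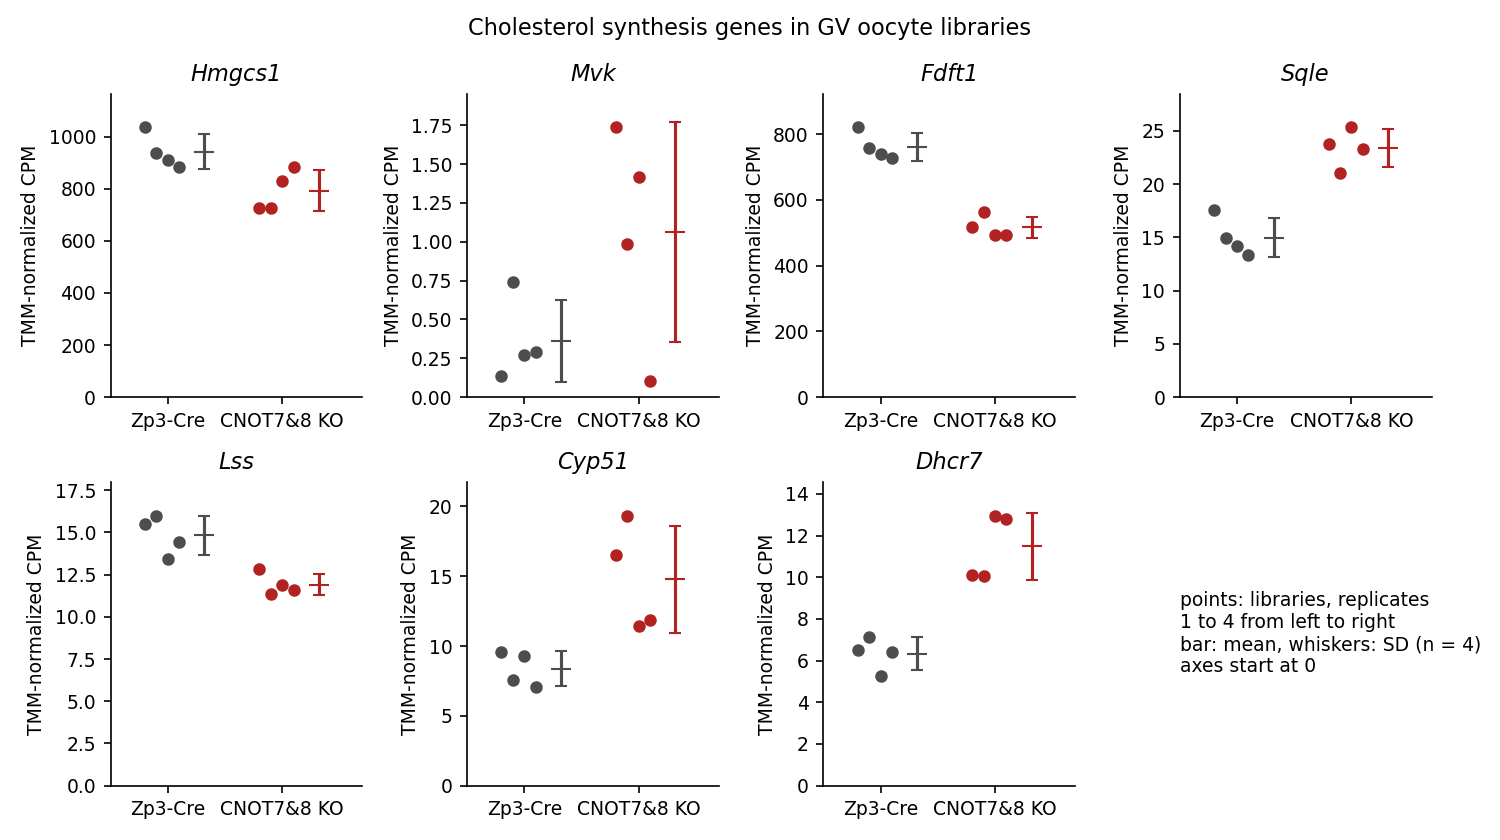
TMM-normalized CPM of the 7 genes in each library (linear axes from 0), with control in grey and CNOT7&8 KO in red, and the mean and SD of 4 libraries beside the points. Sqle, Cyp51 and Dhcr7 lie higher in every KO library and Fdft1 lower, Hmgcs1 and Lss lie lower by narrow gaps, and Mvk overlaps.

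Thus 3 of the 7 genes rose at an adjusted p of at most 0.05, where 31.2% of all tested genes did, and 1 fell, where 24.1% did. With TMM scaling none changed by 2-fold or more with that adjusted p, a call that 23.8% of all tested genes met upward and 6.56% downward. By library totals alone Cyp51 (log2 fold change 1.09) and Dhcr7 (1.15) met it. They also met it by TMM on genes of at least 10 CPM (1.07 and 1.11). The shares of all tested genes past 2-fold were not taken for these scalings. KO libraries were all above control for Sqle, Cyp51 and Dhcr7, as for 27.0% of tested genes, and all below for Hmgcs1, Fdft1 and Lss, as for 21.4%. For Hmgcs1 and Lss this separation was present with TMM scaling but not in CPM by library totals alone, where Hmgcs1 had 812 to 879 in control and 772 to 968 in KO libraries and Lss 12.6 to 14.7 and 12.6 to 13.7. With so few genes, these counts are close to the background shares. The median log2 fold change of the 7 was 0.64, beside 0.12 for all tested genes. Under each scaling tried, Sqle, Cyp51 and Dhcr7 stayed higher and Fdft1 lower, with adjusted p-values past the threshold, although the median of all tested genes moved up by 0.29 with library totals alone, by 0.25 with TMM on genes of at least 10 CPM and by 0.10 with upper-quartile scaling.

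**Figure D2:**
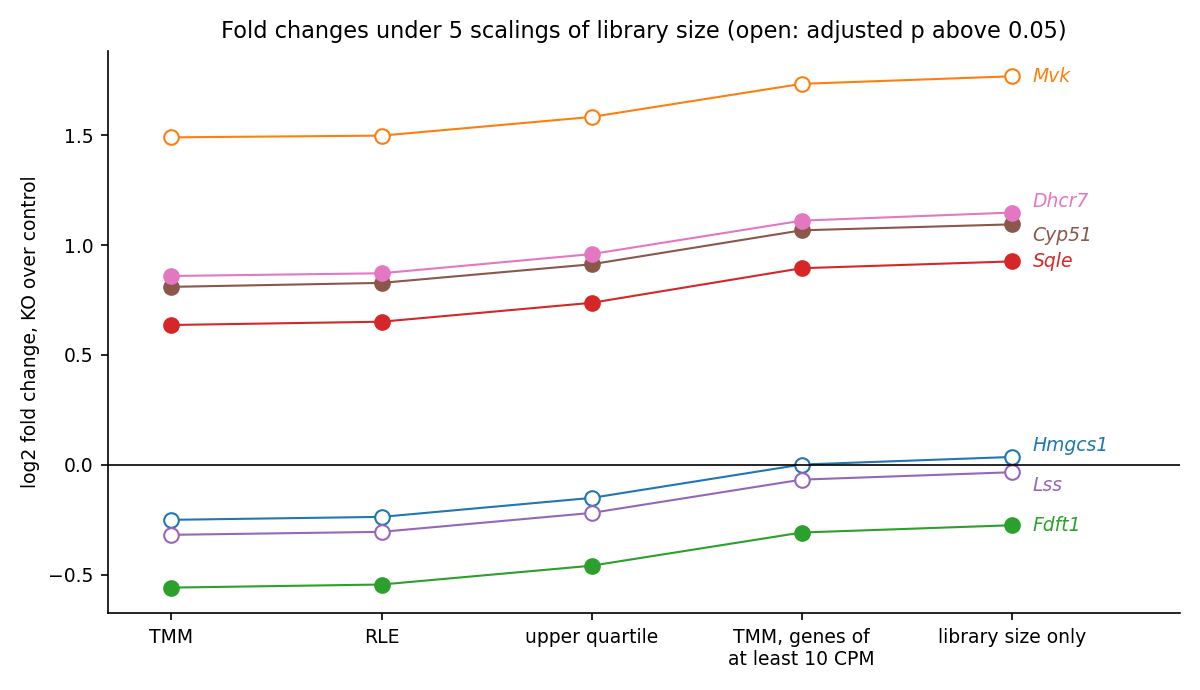
Fitted log2 fold changes (KO over control) of the 7 genes under 5 scalings of library size, with filled points for an adjusted p of at most 0.05. All lines shift upward together from TMM to library totals alone, where Hmgcs1 crosses 0 at 0.036 while Fdft1 remains below it.

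Of the 4 genes called, the one that fell was abundant and the 3 that rose were present at lower levels. Hmgcs1 and Fdft1 together made up 97.3% to 97.5% of the counts of the 7 genes in control libraries and 95.0% to 95.8% in KO libraries. The summed level of the 7 was lower in KO libraries (1306 to 1436 CPM) than in control libraries (1653 to 1906 CPM) with TMM scaling, but the ranges overlapped in CPM by library totals alone (1392 to 1583 in KO and 1518.5 to 1617 in control libraries). The sum of Sqle, Cyp51 and Dhcr7, which were grouped after their values were seen, was 26.8 to 33.6 CPM in control and 47.96 to 50.5 CPM in KO oocytes. The cumulus and granulosa markers given above also had a higher sum in KO libraries, and their part in the rise of these genes was not tested. Across all tested genes the shares that rose and fell differed by level, and with 4 called genes no pattern of level can be read for the 7. Among tested genes of 100 CPM or more, 8.37% rose and 55.2% fell, among those of 10 to under 100 CPM 25.7% rose and 36.8% fell, among those of 1 to under 10 CPM 44.1% rose and 15.7% fell, and among those under 1 CPM 35.6% rose and 3.36% fell. By their mean over all libraries, Fdft1, which fell, lay in the class of 100 CPM or more. Of those that rose, Sqle and Cyp51 lay in that of 10 to under 100 CPM and Dhcr7 in that of 1 to under 10 CPM.

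Levels between genes were compared as CPM per kilobase of merged exons. In control libraries, Hmgcs1 had 205 CPM per kilobase (192 to 226 over the 4 libraries) and Fdft1 180 (172 to 194), and these ranges overlap. Sqle followed at 2.70 (2.40 to 3.17), with Cyp51 at 1.90 (1.60 to 2.17), Lss at 1.37 (1.24 to 1.48), Dhcr7 at 1.09 (0.901 to 1.23) and Mvk at 0.134 (0.04997 to 0.277), and no other neighbours in this order overlapped. In KO libraries the order changed at its lower end, where Dhcr7 (1.97) stood above Lss (1.10). Per kilobase of the longest transcript instead, Dhcr7 (2.25), Cyp51 (2.13) and Lss (2.12) were close in control libraries, so their order depends on the length used.

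**Figure D3:**
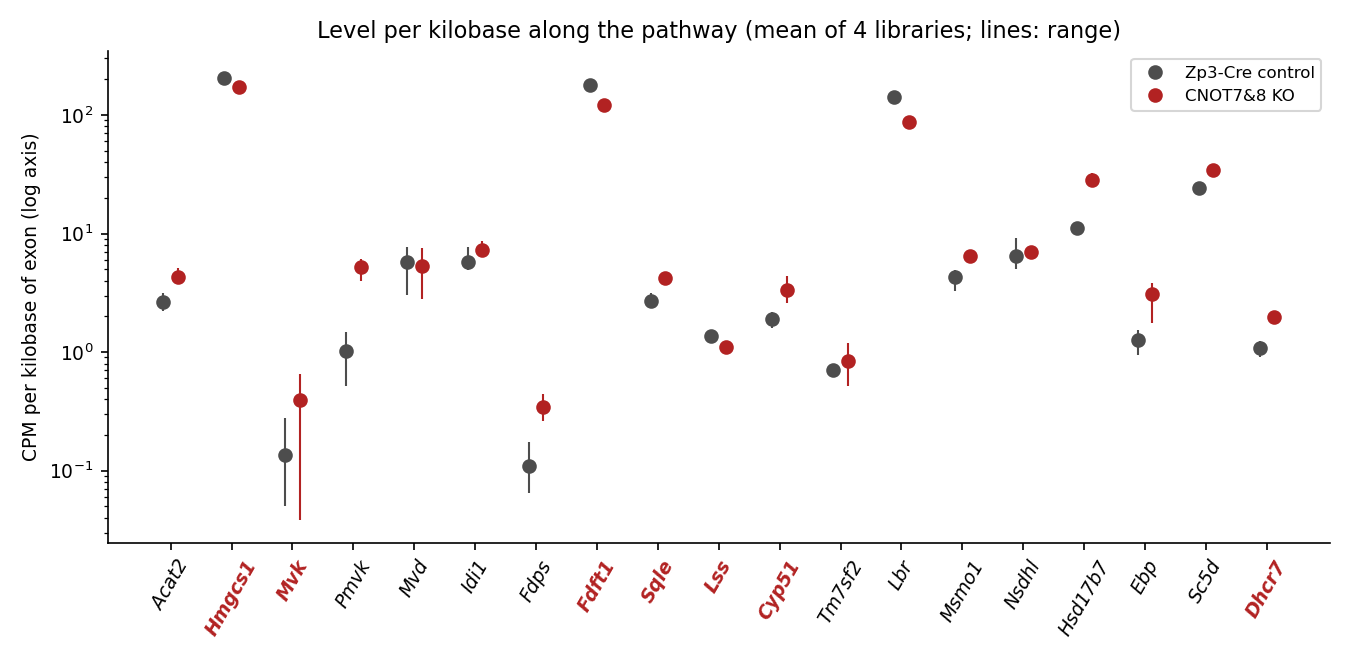
Mean level per kilobase of merged exons (CPM per kilobase, log axis) of 19 cholesterol synthesis genes in pathway order, with vertical lines for the range of 4 libraries and the 7 described genes in red type. Hmgcs1 and Fdft1 stand near the top at 205 and 180 in control, and Mvk near the bottom at 0.134.

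The sequences next to these genes were searched for elements tied to sterol control and to mRNA decay. Promoters from 250 bases before to 50 after the start (RefSeq, GRCm38.p6) were found for 5 of the 7 genes, with 3 for Dhcr7, and none was found for Fdft1 and Sqle. The letters TCACNCCAC, a core of the sterol regulatory element bound by SREBP, were looked for on both strands. They occurred in the Hmgcs1 promoter, 137 bases before the start, and in none of the others searched for these genes, and 1.24% of the 32851 promoters hold them. Only these letters within these windows were searched, so other forms of the element and sites elsewhere would be missed. The letters CCAAT, bound by NF-Y, which works with SREBP, occurred on either strand in 4 copies for Hmgcs1, 5 for Mvk, 1 for Lss, 1 for Cyp51 and 2 in the third promoter of Dhcr7, beside 37.4% of all promoters with at least 1 copy. Shown here are the sterol element of Hmgcs1 and a CCAAT copy each for Lss, Cyp51 and Dhcr7, of which the last 2 rose and the others did not pass the test, with the motif in capitals (ATTGG where it lies on the other strand), at chr13:119690204-119690233 (plus), chr10:76531531-76531560 (plus), chr5:4104709-4104738 (minus) and chr7:143830117-143830146 (plus) in turn.
Hmgcs1 sterol regulatory element: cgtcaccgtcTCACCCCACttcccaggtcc
Lss CCAAT: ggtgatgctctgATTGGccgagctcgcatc
Cyp51 CCAAT: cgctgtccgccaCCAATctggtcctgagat
Dhcr7 CCAAT: tcactgccttcaCCAATcacaggacgcagc

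In the longest annotated 3′UTR of each gene, the cytoplasmic polyadenylation element (CPE) was searched as TTTTAT on the sense strand, since CPEB proteins that bind it can recruit the CCR4–NOT complex. It occurred in 2 copies in Hmgcs1 and Cyp51 and in 1 copy in Lss, and in none in Mvk, Fdft1, Sqle and Dhcr7. Thus both a gene that rose (Cyp51) and genes that did not pass the test (Hmgcs1 and Lss) had copies, and 56.2% of 15132 tested genes with a 3′UTR have at least 1. Only the copy in Lss lay within the last 100 bases, starting 79 bases from the end, as is the case for 14.6% of those genes. The 3′UTRs were 1782 bases long in Hmgcs1, 400 in Mvk, 1600 in Fdft1, 275 in Sqle, 2411 in Lss, 1980 in Cyp51 and 893 in Dhcr7, beside a median of 1118, and Sqle alone of the 7 held a Pumilio element (searched as TGTAAATA), which 11.99% of genes hold. The AU-rich element (searched as ATTTA) occurred in 4 copies in Hmgcs1, 3 each in Fdft1 and Cyp51, 2 in Lss and 1 in Dhcr7. Mvk and Sqle held none, and 69.7% of genes hold at least 1. One CPE per gene is shown in capitals, at chr13:119706840-119706869 (plus), chr10:76555389-76555418 (plus) and chr5:4082975-4083004 (minus).
Hmgcs1 CPE: ttttttttctttTTTTATgtgtaagaattt
Lss CPE: ttactaagatgtTTTTATttaaataaattt
Cyp51 CPE: atgattttaatgTTTTATtaactcggtgat

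Of 12 other synthesis enzymes examined, 7 rose, 1 fell and 4 did not pass the test, with a median log2 fold change of 0.54. Of all tested genes 31.2% rose and 24.1% fell, with a median of 0.12. In the early steps, Pmvk, the kinase that follows Mvk, rose 5.13-fold, from 1.76 ± 0.692 to 8.92 ± 1.501 CPM. Fdps, which makes the substrate of Fdft1, rose 3.02-fold from a low level of 0.463 ± 0.198 CPM. Both have been described as steps that mouse oocytes express weakly.

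In the late steps, Hsd17b7, the 3-ketosteroid reductase of the pathway, rose 2.52-fold from 56.7 ± 5.69 CPM, and Ebp, the sterol isomerase, rose 2.40-fold from 2.94 ± 0.576 CPM. Sc5d, the desaturase just before Dhcr7, rose 1.41-fold from 118 ± 7.60 CPM. Lbr, a nuclear envelope protein that is also a sterol 14-reductase, fell from 676 ± 40.3 to 413 ± 17.7 CPM (log2 fold change −0.71 ± 0.094, adjusted p = 5.6e-05).

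Over the 19 pathway genes examined, 10 rose and 2 fell (Fdft1 and Lbr), beside 31.2% and 24.1% of all tested genes. In 2 splits made after the values were seen, 3 of the 8 genes up to Fdft1 rose and 1 fell, and 7 of the 11 from Sqle on rose and 1 fell. Of the 4 genes that averaged 100 CPM or more over all libraries (Hmgcs1, Fdft1, Lbr and Sc5d), 1 rose and 2 fell, and of the 15 below that level 9 rose and none fell. Hsd17b7, which rose, fell just short of that cut, with a mean of 56.7 CPM for control and 143 CPM for KO. Both decreases among these 19 genes were at 100 CPM or more. Over all tested genes decreases were also common at 10 to under 100 CPM, as the shares above show. They were rarer at 1 to under 10 CPM (15.7%) and under 1 CPM (3.36%), and some of the 15 genes, such as Mvk, Pmvk and Fdps, lay below 10 CPM. With only 2 decreases and a cut chosen afterwards, no pattern of level can be read for the 19 genes.

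**Figure D4:**
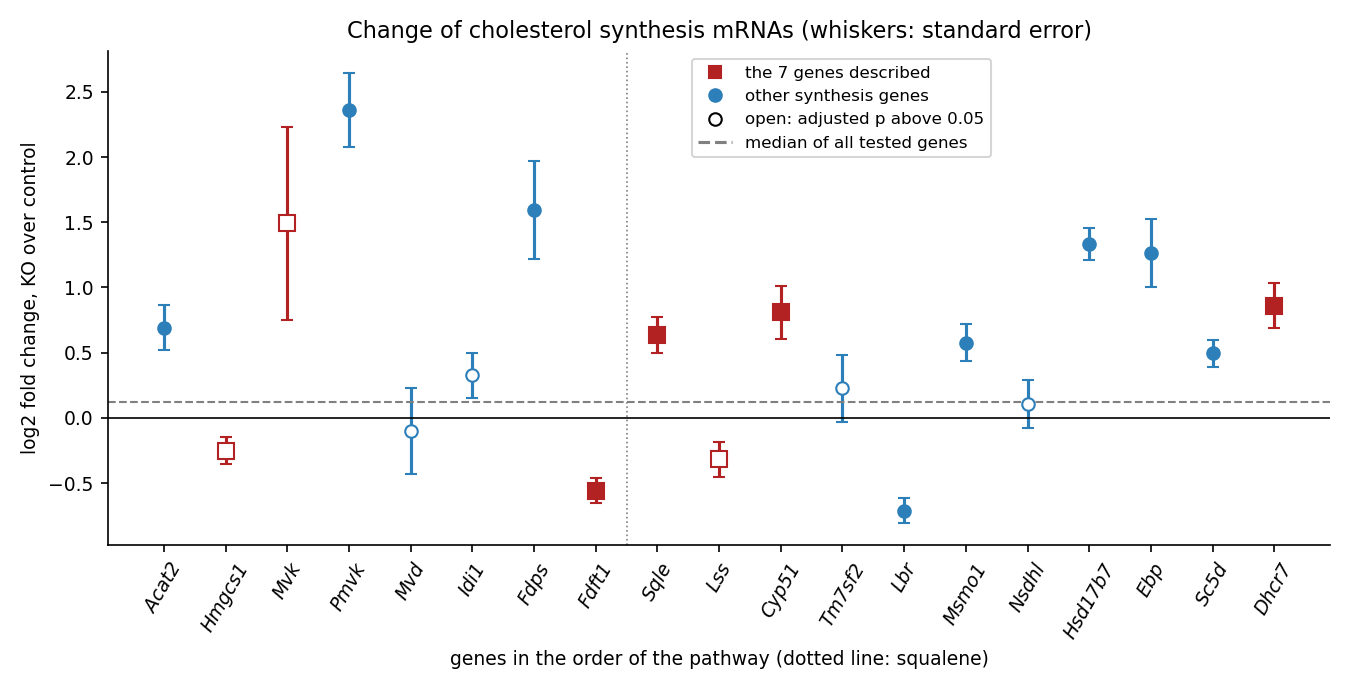
Log2 fold change (KO over control, whiskers for the SE) of 19 cholesterol synthesis genes in pathway order, with squares for the 7 described genes, open symbols for an adjusted p above 0.05 and a dashed line at the median of all tested genes (0.12). To the right of squalene, Sqle (0.64), Cyp51 (0.81) and Dhcr7 (0.86) stand with Hsd17b7 (1.33) above the line, and Lss (−0.32) and Lbr (−0.71) below it.

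Across the 8 libraries, genes averaging 10 CPM or more whose log2 CPM closely followed that of Hmgcs1 included Taf3, Fam167a (Pearson r = 0.98 for both) and Insig1 (0.97). For Mvk, which had the largest fitted change of the 7, these were Dnajb2 (0.96), Ldha (0.94) and Npm3 (0.93). The 8 points share the group difference and the library depth, and those of Mvk rest on few counts.

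In the branch that leads from isoprenoids to other products, Coq2 rose and Dhdds, Fnta and Pggt1b fell among 9 genes, with a median of −0.23, where 31.2% of all tested genes rose and 24.1% fell. Fnta, the subunit shared by the enzymes that attach farnesyl and geranylgeranyl groups to proteins, fell from 104 ± 12.7 to 54.7 ± 2.07 CPM (log2 fold change −0.92 ± 0.11, adjusted p = 3.5e-05). The abundant Nus1 (0.11 ± 0.20, adjusted p = 0.653) and Pdss2 (−0.18 ± 0.12, adjusted p = 0.201) did not pass the test, and the sign of Pdss2 depended on the scaling.

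Of 13 genes that sense sterols or control the pathway, 3 rose and 6 fell, with a median of −0.48, where 31.2% of all tested genes rose and 24.1% fell. The mRNA of SREBP2 itself, Srebf2, had 5.75 ± 2.06 CPM in control oocytes and 7.41 ± 2.19 CPM in KO oocytes (log2 fold change 0.37 ± 0.29, adjusted p = 0.290), a gene outside the naming rule that is given as the main regulator. Scap, its escort, was abundant at 392 ± 62.0 and 354 ± 65.3 CPM (−0.15 ± 0.15, adjusted p = 0.417), with a sign that depended on the scaling. The 2 INSIG mRNAs went opposite ways. Insig1, itself a known SREBP target, fell from 625 ± 50.9 to 449 ± 62.2 CPM (−0.48 ± 0.12, adjusted p = 0.00463), a call lost with library totals alone (−0.19) and with TMM on genes of at least 10 CPM (−0.22). Insig2 rose from 2.53 ± 0.749 to 9.98 ± 1.41 CPM (1.95 ± 0.23, adjusted p = 2.1e-05). Among the ubiquitin ligases of the list, Mylip, a known target of oxysterol receptors, rose (1.32 ± 0.15), and Rnf145 fell (−1.06 ± 0.14). Mbtps1, the site-1 protease that makes the first cut of SREBP, rose from 49.0 ± 4.33 to 70.8 ± 4.22 CPM (0.53 ± 0.11, adjusted p = 0.00164). The site-2 protease Mbtps2, also outside the naming rule, fell from 57.7 ± 9.62 to 31.0 ± 3.68 CPM (−0.90 ± 0.15, adjusted p = 0.000273). Nr1h2, an oxysterol receptor, fell by 1.81 on the log2 scale, although the ranges of the groups overlapped.

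Of 16 genes of cholesterol uptake and transport, 7 rose and 2 fell, with a median of 0.57, where 31.2% of all tested genes rose and 24.1% fell. Vldlr, a receptor for lipoproteins rich in triglyceride, rose from 2.13 ± 1.30 to 15.2 ± 3.39 CPM (2.76 ± 0.33, adjusted p = 2.9e-05). Stard4, which carries cholesterol through the cytosol, was the most abundant of those that rose 2-fold, with 29.6 to 36.1 CPM in control and 91.0 to 196 CPM in KO libraries (2.01 ± 0.22, adjusted p = 1.2e-05). The receptor gene Scarb1, outside the naming rule, fell from 23.3 ± 0.710 to 13.8 ± 2.52 CPM (−0.76 ± 0.15, adjusted p = 0.00136), without overlap. Lrp1, a large scavenging receptor, fell from 171 ± 48.7 to 88.5 ± 19.8 CPM (−0.95 ± 0.21), with overlapping ranges. Npc1 (0.052 ± 0.14) and Gramd1c (0.17 ± 0.13), the other abundant members, did not pass the test. Lipa, the lysosomal lipase, counted among the 7 that rose, passed it on 5, 1, 0 and 0 counts in control and 2, 10, 9 and 10 counts in KO libraries. It had at most 0.134 CPM in control and 0.217 to 0.555 CPM in KO libraries. Lipa thus passed the filter of 0.2 CPM in 2 libraries only through the group where it was higher.

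Of 12 genes of cholesterol esterification, efflux and oxidation, Ch25h had no count in any library, and of the other 11, 2 rose and 3 fell, with a median of −0.22, where 31.2% of all tested genes rose and 24.1% fell. Abca1, the main cholesterol exporter to apolipoproteins, rose from 0.819 ± 0.433 to 4.12 ± 1.65 CPM (2.25 ± 0.41, adjusted p = 0.000569). Cyp27a1, the sterol 27-hydroxylase, fell from 12.4 ± 0.580 to 4.23 ± 0.759 CPM (−1.55 ± 0.17, adjusted p = 1.7e-05). Nceh1, a cholesteryl ester hydrolase, rose from 239 ± 14.0 to 343 ± 27.2 CPM (0.52 ± 0.10), whereas Soat1, which esterifies cholesterol, had 158 ± 21.1 and 170 ± 19.4 CPM (adjusted p = 0.508). Abcg1 fell (−0.49 ± 0.17, adjusted p = 0.0260), a call that was lost under several alternatives. The lists of sensing, uptake and efflux genes thus each held changes in both directions. The summed level of the cumulus and granulosa markers given above was higher in KO libraries as well, and their part in these changes was not tested.

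**Figure D5:**
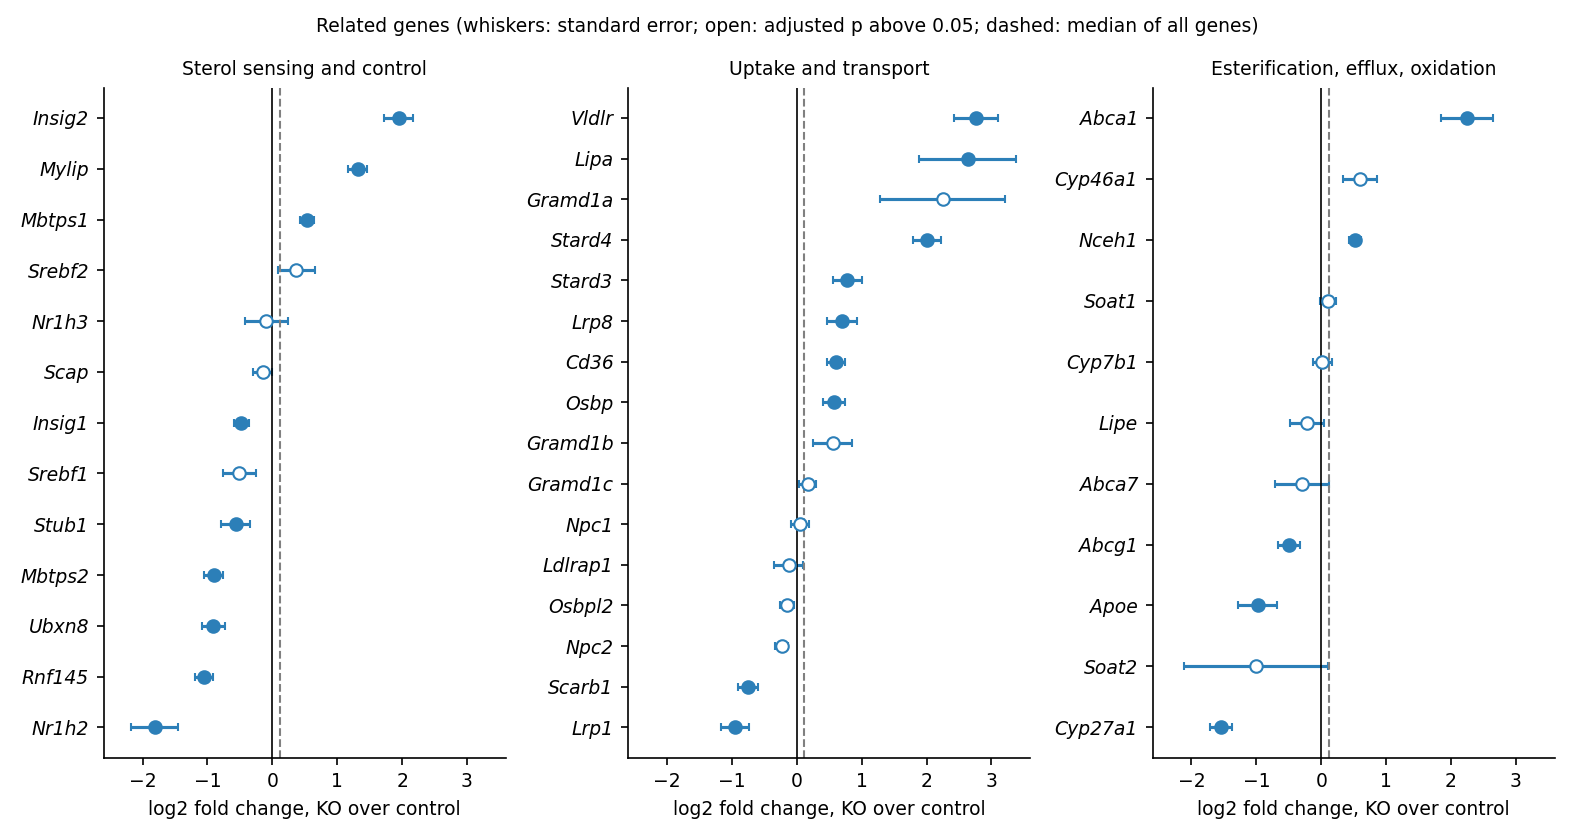
Log2 fold change (KO over control, whiskers for the SE) of tested genes of sterol control, uptake and transport, and esterification, efflux and oxidation, with open points for an adjusted p above 0.05. In the panel of sterol control 3 genes rise and 6 fall, in the uptake panel 7 rise and 2 fall, and in the last panel 2 rise and 3 fall.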

How the data were processed

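The authors mapped reads of ribosomal-RNA-depleted stranded libraries to GRCm38 with STAR 2.6.1d (nf-core/rnaseq) and deposited each library's raw counts of reads on genes, without normalization or pooling. The labels name a total RNA kit and the methods an mRNA kit. The counting tool, annotation and strand setting are not given in the sources used here, so reads of overlapping and antisense genes cannot be told apart.

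Genes reaching 0.2 CPM in 2 libraries were tested with edgeR 4.0.16 (R 4.3.3, limma 3.58.1), using TMM scaling, the quasi-likelihood test and Benjamini-Hochberg adjustment over 19241 genes, with a threshold of 0.05. CPM values are counts relative to the TMM-scaled library size. Standard errors were derived from the F statistic. Total counts were 8639444 to 44092144, which limits genes with few reads. Alternatives were edgeR's exact test, DESeq2 1.42.0, other scalings and filters, a 2-fold threshold, a replicate block and leaving out libraries. Scripts were tested on simulated data.

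GENCODE vM21 gave positions, lengths and 3′UTRs (98.2% of identifiers matched), and RefSeq gave promoters. Figures were drawn with matplotlib 3.10.9 (Python 3.11.15, pandas 2.3.3).

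The 7 genes and all lists were chosen with earlier results of these data known. Named genes were the 7, Cnot7 and Cnot8, and from each list those changed at least 2-fold with an adjusted p of at most 0.05 and the 3 most abundant. For the gene with the largest change and for the most abundant, the 3 genes most correlated with it were also named. Some related genes are not reported here, and list counts leave them out. Other genes named were chosen after their values were seen.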

Additional observations from a re-analysis of the deposited data

Results flagged for a closer look

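By Dixon's criterion for 4 samples (the gap to the nearest library over the range of the group), no library of the 7 genes passed the 95% critical value. Mvk in KO replicate 4 had 0.102 CPM, against 0.989 to 1.74 CPM in the other 3, which did not pass it, although the call of Mvk changed without that library. Among 102 groups of 4 libraries checked over all genes listed, 9 had a library past it, where chance alone gives about 5.1 (1 in 20). In control replicate 1, Cnot7 had 1049 CPM (886 to 900.2 in the other 3), Nus1 249 CPM (135 to 149), Fnta 123 CPM (95.4 to 99.3), Vldlr 4.06 CPM (1.38 to 1.63), Gramd1c 154 CPM (121 to 126) and Zp2 3720.5 CPM (2271 to 2518). In KO replicate 4, Nus1 had 249 CPM (162 to 165) and Vldlr 20.2 CPM (13.1 to 14.2). Ptprc had 0.340 CPM in control replicate 3 (0.0267 to 0.0728).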

How the results depend on the processing

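Sqle, Cyp51 and Dhcr7 (higher) and Fdft1 (lower) kept their direction and stayed past the threshold in 18 alternatives each. The number of the 7 genes called lower was 2 with DESeq2 (Lss joined Fdft1), 1 to 2 when single libraries were left out, and 2 without control replicate 1 and KO replicate 4 together, an alternative chosen after seeing the data. The number called higher was 3 to 4 when single libraries were left out. With a 2-fold threshold and the main TMM scaling 0 were called higher and 0 lower. Cyp51 and Dhcr7 passed that threshold by library totals alone and by TMM on genes of at least 10 CPM. Without both deep libraries Hmgcs1 (−0.26, adjusted p = 0.0121) and Mvk (1.55, adjusted p = 0.0158) were called. Over all genes, 4631 were lower, against 2618 with library totals alone, 2865 with TMM on genes of at least 10 CPM and 1263 with a 2-fold threshold, and 4086 to 4847 when single libraries were left out. The corresponding numbers higher were 5997, 7744, 7589 and 4582, and 5363 to 6184. Signs reversed with library totals alone for Hmgcs1 (0.036), Pdss2 (0.096), Scap (0.13), Gdf9 (0.21), Bmp15 (0.16), Zp2 (0.082) and Pecam1 (0.059), with TMM on genes of at least 10 CPM for Hmgcs1 (0.0010), Pdss2 (0.061), Scap (0.089), Gdf9 (0.17), Bmp15 (0.13), Zp2 (0.055) and Pecam1 (0.026), and with upper-quartile scaling for Gdf9 (0.023). No reversed value passed the test. When single libraries were left out, Npc1 ranged from −0.040 (without control replicate 3) to 0.18 and was −0.015 without KO replicate 4, Nus1 ranged from −0.034 (without KO replicate 4) to 0.36 and Gdf9 from −0.14 to 0.050 (without KO replicate 4). Npc1 (0.34 and 0.31), Gramd1c (0.45 and 0.43) and Soat1 (0.39 and 0.36) were called higher with library totals alone and with TMM on genes of at least 10 CPM, and Gramd1c (0.29) also without KO replicate 3. The call of Inhba was lost without control replicate 1 or 3 and without KO replicate 1, 2 or 3 (0.95 to 1.12), and that of Abcg1 without control replicate 2 or 4 and without KO replicate 1, 2 or 4 (−0.51 to −0.38). The cause was not tested.

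With the replicate number as a block, 3 of the 7 genes were called higher and 1 lower, and 5511 and 4201 of all genes, while Inhba (adjusted p = 0.0535) was no longer called. The deviations of same-numbered libraries from their group means correlated with r of −0.38, −0.13, 0.38 and −0.56. Deviations within a group depend on each other, so these values cannot show whether the numbers pair the samples. Mvk was not tested with the filter of 1 CPM in 4 libraries.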
